A study of Mus musculus with 10 samples.

Results

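The small proline-rich proteins, encoded by the Sprr genes, were followed in primary mouse keratinocytes on Affymetrix Mouse430_2 arrays. The members were Sprr1a, Sprr1b, Sprr2d, Sprr2h, Sprr2i, Sprr2k, the pseudogene Sprr2j-ps and Sprr3, and they were found as every probe set that the platform annotation assigns to at least 1 of these 8 genes. That gave 8 probe sets, 1 per gene, of the 45037 that are not controls, and none of the 8 is annotated to a second gene. Of the 17 Sprr genes in the RefSeq gene table, 4 others are represented, by 4 further probe sets: 1 for Sprr2f and 3 shared among Sprr2a1, Sprr2a2 and Sprr2a3. The members had been picked with the difference between the genotypes already known, so their differences are given as a description without a p-value.

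The 5 WT arrays carry RNA of Sgpp1+/+ keratinocytes and the 5 KO arrays RNA of Sgpp1-/- keratinocytes. The product of Sgpp1 is a phosphatase that degrades the signalling lipid sphingosine-1-phosphate to sphingosine. All 10 cultures grew for 3 to 4 days in EMEM with 8% fetal calf serum and calcium at 0.05 mM, a level that holds keratinocytes undifferentiated, and 6 µg of total RNA was labelled per array. The labels give neither the mice's age, sex and strain, nor how the allele was made, nor whether each array stands for a separate animal, so the spread between arrays may be partly technical. The WT arrays are numbered 1 to 5 and the KO arrays 8, 9, 10, 21 and 23. A value is a log2 signal, normalised across the arrays by RMA, so a difference of 1 is a doubling, and signals of different probe sets are not comparable as amounts of RNA.

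All 3 Sgpp1 probe sets were higher, not lower, on the arrays labelled KO. The brightest of them read 6.25 to 8.34 on the WT arrays and 8.46 to 9.03 on the KO arrays, and none passed the threshold (limma, adjusted p = 0.156 for the brightest). Which part of the transcript the allele removes is not given in the labels, so every direction below rests on the labels alone. Array medians lay between 5.03 and 5.17. The mean correlation of an array with the other 9 was 0.955 for WT 1 and 0.967 or more for the rest. The poly-A spike-in controls were brightest on 3 arrays, WT 1, WT 2 and KO 8, whose mean log2 signals were 11.28, 10.68 and 11.03, the other 7 arrays lying at 9.85 to 10.37. Fosb, an immediate-early gene, read 7.36 to 9.22 on those same 3 arrays and at most 4.31 elsewhere. Keratinocyte identity was clear on all arrays: the basal keratinocyte markers averaged 10.56 to 10.86 on the WT arrays and 10.57 to 10.94 on the KO arrays.

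Sprr proteins are short, built from proline-rich repeats, and are cross-linked by transglutaminases into the cornified envelope, the insoluble protein shell under the membrane of a terminally differentiated keratinocyte. Their genes lie side by side in the epidermal differentiation complex, next to those of involucrin, loricrin, repetin and filaggrin. Sprr1 and Sprr2 genes are known to be induced in suprabasal epidermis and after injury or irritation, whereas Sprr3 belongs mainly to internal stratified epithelia such as the oesophagus.

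To show what the genes share at their starts, promoter windows of 300 bases, from 250 before to 50 after the annotated start, were taken from RefSeq (GRCm38.p6) for 7 of the 8 members. Both strands were searched for the letters TGANTCA, the site of the AP-1 factors with any base (N) in the middle. The other letters searched were ATTTGCAT, the octamer bound by POU factors, and TATAAA, the TATA box. Capitals mark these matches, which did not overlap one another. The first 3 windows are those of the members with the greatest differences between the genotypes, the next 3 show Sprr1a, Sprr1b and Sprr3, and the last is a Sprr2a gene, from outside the members. The Sprr2d window is chr3:92338890-92339189 on the plus strand, that of Sprr2h chr3:92385435-92385734 (plus), that of Sprr2i chr3:92407741-92408040 (plus), that of Sprr1a chr3:92485832-92486131 (minus), that of Sprr1b chr3:92438730-92439029 (minus), that of Sprr3 chr3:92458671-92458970 (minus) and that of Sprr2a1 chr3:92215585-92215884 (plus). Each is written 5′ to 3′ on the strand of the gene.
Sprr2d: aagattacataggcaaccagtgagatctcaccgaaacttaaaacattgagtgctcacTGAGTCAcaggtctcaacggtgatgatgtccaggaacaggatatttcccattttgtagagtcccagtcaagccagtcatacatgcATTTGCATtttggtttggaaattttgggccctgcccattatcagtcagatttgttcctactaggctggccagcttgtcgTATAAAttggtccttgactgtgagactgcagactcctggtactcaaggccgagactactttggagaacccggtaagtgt
Sprr2h: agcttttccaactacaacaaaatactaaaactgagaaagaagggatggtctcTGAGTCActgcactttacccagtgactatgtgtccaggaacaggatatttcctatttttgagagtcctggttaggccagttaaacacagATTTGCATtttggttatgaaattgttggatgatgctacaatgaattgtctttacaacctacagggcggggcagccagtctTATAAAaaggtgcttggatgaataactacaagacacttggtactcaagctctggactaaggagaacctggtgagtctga
Sprr2i: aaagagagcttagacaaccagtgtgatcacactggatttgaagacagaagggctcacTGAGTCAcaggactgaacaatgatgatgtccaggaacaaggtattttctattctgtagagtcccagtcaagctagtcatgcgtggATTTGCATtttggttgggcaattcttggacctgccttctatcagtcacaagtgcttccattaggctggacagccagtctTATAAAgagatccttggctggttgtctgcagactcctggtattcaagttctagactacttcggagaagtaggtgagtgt
Sprr1a: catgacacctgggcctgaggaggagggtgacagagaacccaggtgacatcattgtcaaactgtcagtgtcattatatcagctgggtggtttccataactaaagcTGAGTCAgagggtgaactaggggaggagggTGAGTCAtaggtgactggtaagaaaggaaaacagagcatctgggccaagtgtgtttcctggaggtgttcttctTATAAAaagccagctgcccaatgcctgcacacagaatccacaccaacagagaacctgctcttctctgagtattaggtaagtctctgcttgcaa
Sprr1b: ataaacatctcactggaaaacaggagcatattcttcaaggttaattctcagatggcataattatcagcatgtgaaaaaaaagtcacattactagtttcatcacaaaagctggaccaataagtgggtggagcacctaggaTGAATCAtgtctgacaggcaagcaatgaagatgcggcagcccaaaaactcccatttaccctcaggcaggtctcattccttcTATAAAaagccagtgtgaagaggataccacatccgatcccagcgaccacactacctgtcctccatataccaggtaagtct
Sprr3: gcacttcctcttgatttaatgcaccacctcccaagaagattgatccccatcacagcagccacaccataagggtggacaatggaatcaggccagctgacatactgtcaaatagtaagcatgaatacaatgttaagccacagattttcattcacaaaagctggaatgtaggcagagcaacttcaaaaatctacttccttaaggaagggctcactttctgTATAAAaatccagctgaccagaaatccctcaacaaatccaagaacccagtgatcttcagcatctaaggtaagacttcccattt
Sprr2a1: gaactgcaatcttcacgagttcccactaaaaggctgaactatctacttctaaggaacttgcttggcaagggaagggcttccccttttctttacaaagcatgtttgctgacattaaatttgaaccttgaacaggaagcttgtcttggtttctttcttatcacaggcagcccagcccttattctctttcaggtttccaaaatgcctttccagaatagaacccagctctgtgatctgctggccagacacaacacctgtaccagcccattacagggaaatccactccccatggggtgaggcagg

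The 4 Sprr2 members share one layout. In Sprr2d the AP-1 letters begin 193 bases before the start, the octamer 108 and the TATA letters 29. Sprr2i has the same 3 positions, Sprr2h has 198, 109 and 29, and Sprr2k has AP-1 letters at 196 and 182, an octamer at 109 and TATA letters at 29. Sprr2f, outside the members, follows the layout too, with 197, 112 and 29. Sprr1b holds AP-1 letters 111 bases and TATA letters 30 bases before its start, and Sprr1a has AP-1 letters at 146 and 116 and TATA letters at 43, neither with an octamer. In the Sprr3 window the only match was TATAAA, 33 bases before the start.

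Counted over the family, AP-1 letters were in 6 of 7 member windows and in 7.81% of 32851 windows of that length in the RefSeq table. The octamer was in 4 of 7 member windows against 1.74%, and TATAAA in 7 of 7 against 13.6%. AP-1 and octamer letters occurred together in 4 of 7 member windows, in 7 of 14 Sprr windows and in 0.198% of all windows. These windows are copies of one another to a degree, so the counts are not independent: Sprr2d, Sprr2h, Sprr2i and Sprr2k were 64.1% to 81.8% identical in pairs, and 48.7% to 54% identical to Sprr1a, Sprr1b and Sprr3. The Sprr2a1 window, identical to that of Sprr2a2, held none of the 3 motifs. Its bases 6 to 50 after the annotated start align, with 41 of 45 matching, to bases 80 to 36 before the start of Sprr2b, so the annotated starts of the 2 genes are displaced by 85 bases and their windows do not show the same stretch. A match is a run of letters, and its absence says only that these letters are not in this window.

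**Figure D1:**
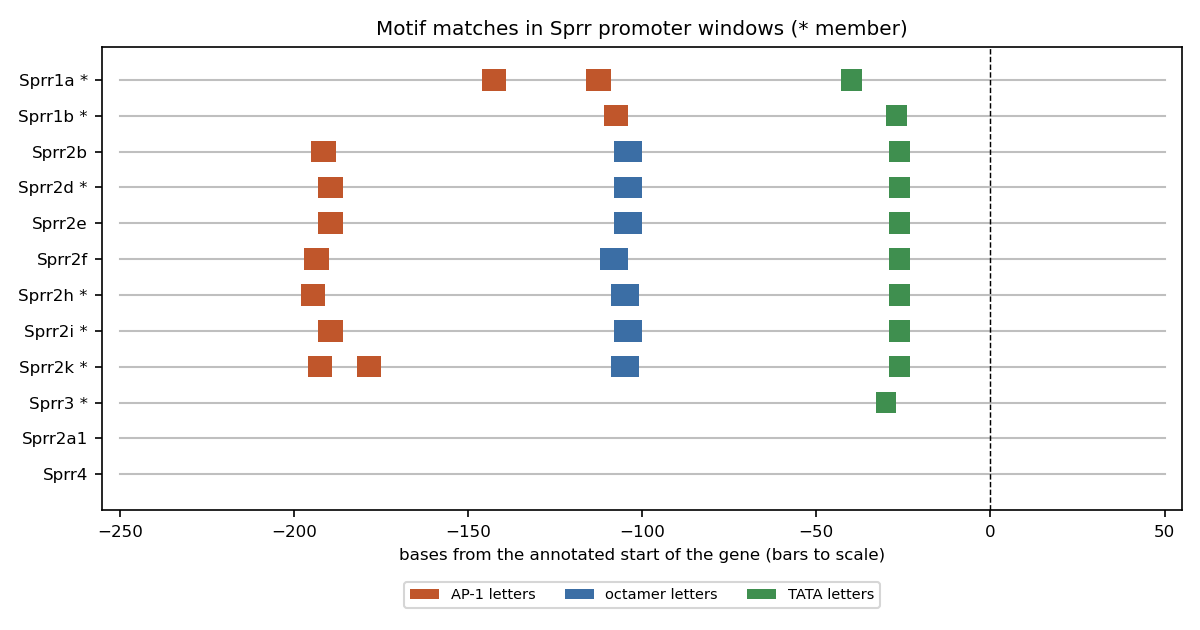
Positions of the AP-1, octamer and TATA letters in the promoter windows of 12 Sprr genes, drawn to scale in bases from the annotated start (dashed line; 250 before to 50 after, in the direction of transcription); asterisks mark members. The Sprr2 genes from Sprr2b to Sprr2k line up, with AP-1 letters 182 to 198 bases and an octamer 108 to 112 bases before the start, while Sprr1a and Sprr1b carry AP-1 and TATA letters, Sprr3 only TATA letters and Sprr2a1 none.

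Among the members, Sprr transcripts read higher on the KO arrays, with Sprr3 the one whose groups overlapped. All 8 members had a higher KO mean, and for 7 of them every KO array read above every WT array, an arrangement found for 2.28% of all probe sets in that direction. The same 7 passed the threshold, an adjusted p of 0.05 over all 45037 probe sets (limma), which 1.13% of all probe sets passed as higher in KO and 0.142% as lower. Because the members were chosen on this contrast, nothing is read from those counts. The median difference of the 8 members was 1.20 on the log2 scale, against −0.02 over all probe sets. In bulk RNA, more cells that express a gene and more of its RNA per cell cannot be told apart.

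Sprr2 genes encode the smallest and most numerous envelope precursors of the family. Sprr2d read 6.67, 7.24, 8.80, 7.91 and 8.67 on WT 1 to WT 5, and 10.18, 10.65, 11.09, 10.44 and 10.004 on KO 8, 9, 10, 21 and 23. The groups did not overlap: the lowest KO array, KO 23, lay 1.21 above the highest WT array, WT 3, and WT 1 and WT 2 were lowest of all. The means were 7.86 ± 0.91 and 10.47 ± 0.43 (SD, n = 5 each) and differed by 2.62 (SE 0.38), or 6.13-fold.

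Sprr2h, whose probe set is of the type (_s_at) that can match several related transcripts, read 7.87, 8.46, 9.37, 8.62 and 10.07 on WT 1 to WT 5, and 10.72, 11.14, 11.34, 11.01 and 10.92 on KO 8, 9, 10, 21 and 23. The KO arrays lay within 0.63 of each other while the WT arrays spanned 2.21, and WT 5 came to within 0.64 of the lowest KO array. The difference of the means, 8.88 ± 0.86 and 11.03 ± 0.23 (SD, n = 5 each), was 2.15 (SE 0.34), or 4.44-fold.

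Sprr2i showed the greatest difference and the widest spread in KO. It read 3.18, 3.51, 3.89, 3.39 and 5.24 on WT 1 to WT 5, and 6.06, 7.16, 8.69, 6.56 and 6.43 on KO 8, 9, 10, 21 and 23. WT 5 stood 1.75 above the mean of the other WT arrays. KO 10 stood 2.14 above that of the other KO arrays, yet no arrays of the groups overlapped. The means were 3.84 ± 0.82 and 6.98 ± 1.04 (SD, n = 5 each) and differed by 3.13 (SE 0.49), or 8.78-fold. The WT values are near the low end of the scale, where no detection call was used here, so how far they stand above background is unknown and the fold is only that of the deposited signals.

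Sprr2k and the pseudogene Sprr2j-ps changed less. Sprr2k read 6.70, 5.91, 6.32, 5.93 and 6.65 on WT 1 to WT 5, and 6.90, 7.59, 7.68, 7.43 and 7.07 on KO 8, 9, 10, 21 and 23. Its groups were separated by only 0.21, between KO 8 and WT 1, and the difference was 1.03 (SE 0.21), or 2.04-fold. Sprr2j-ps, which has no protein product, read 4.92, 4.03, 4.39, 4.15 and 5.23 on WT 1 to WT 5, and 6.25, 5.84, 6.03, 5.76 and 5.67 on KO 8, 9, 10, 21 and 23. Here KO 8 was the highest KO array, where for Sprr1a, Sprr2h, Sprr2i and Sprr2k it was the lowest, and the difference was 1.37 (SE 0.23). Its WT signal is not shown to stand above background, so no fold is given. Whether the pseudogene's signal comes from its own transcript or from the Sprr2 mRNAs it resembles was not tested, since the probe sequences were not used here.

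The Sprr1 genes encode the longer, stress-responsive envelope precursors, and their probe sets were already bright in WT. Sprr1a read 11.83, 12.05, 12.52, 11.75 and 12.64 on WT 1 to WT 5, and 12.97, 13.30, 13.36, 13.20 and 13.02 on KO 8, 9, 10, 21 and 23. Its groups were separated by 0.33, with WT 5 the highest WT array, and its means of 12.16 ± 0.40 and 13.17 ± 0.17 (SD, n = 5 each) differed by 1.01 (SE 0.19), or 2.01-fold. Sprr1b read 10.68, 11.05, 11.64, 10.99 and 11.43 on WT 1 to WT 5, and 12.00, 12.24, 12.20, 12.28 and 12.00 on KO 8, 9, 10, 21 and 23. The KO arrays fell within 0.28 of each other, WT 3 was the highest WT array, and the difference of 0.99 (SE 0.18), or 1.98-fold, was close to that of Sprr1a. Both signals lie near the top of the scale, where the highest value on any array was 14.92, and whether that narrows their differences was not tested.

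Sprr3, the member of internal epithelia, was dim on every array. It read 2.83, 2.78, 2.89, 2.68 and 2.53 on WT 1 to WT 5, and 2.82, 2.91, 2.91, 2.95 and 3.12 on KO 8, 9, 10, 21 and 23. The groups overlapped, KO 8 lying below WT 1 and WT 3, and the difference was 0.20 (SE 0.13). The keratins of oral and oesophageal epithelium, Krt4, Krt13 and Krt76, were also under 6 on all arrays, and Krt76 differed by −0.02 (limma, adjusted p = 0.992). Sprr3 is the one member that did not pass the threshold.

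**Figure D2:**
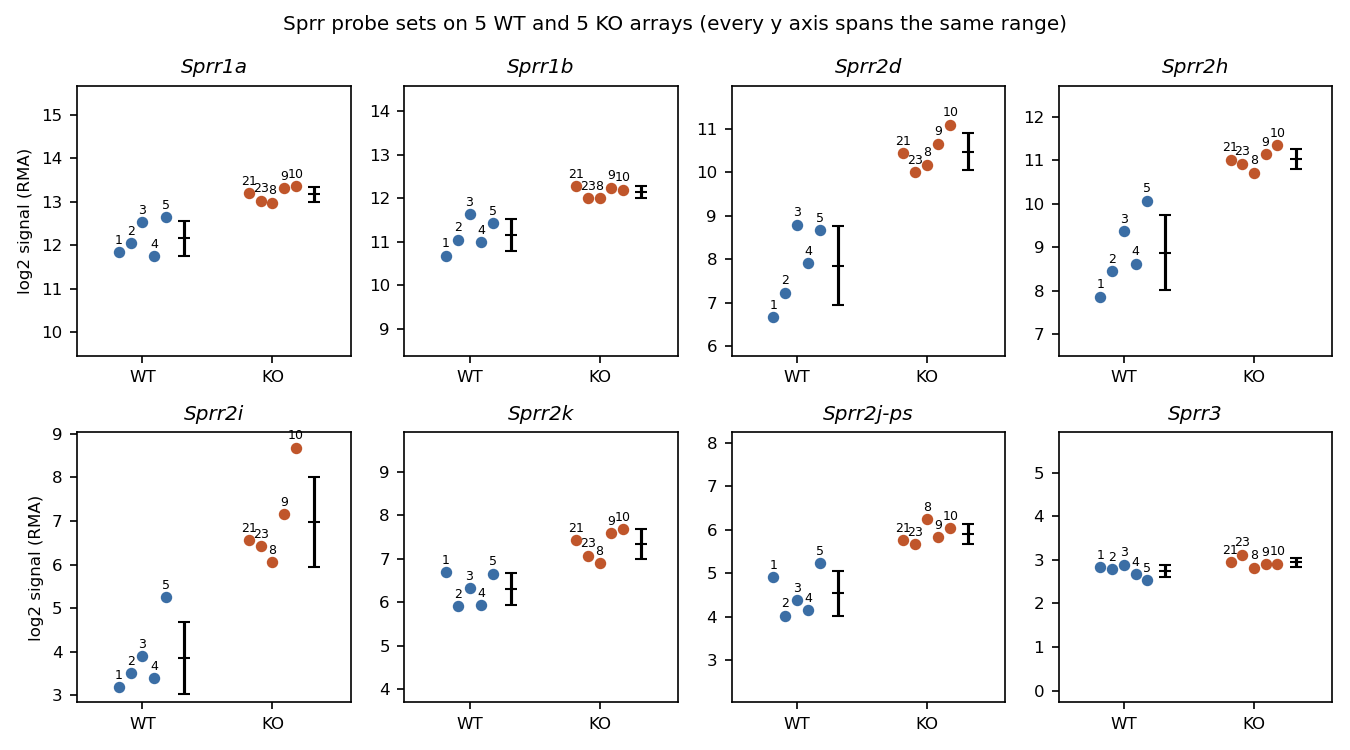
Log2 signal of each Sprr member on the 5 WT (blue) and 5 KO (orange) arrays, each point marked with its array number and every axis spanning the same range; the bars give mean ± SD (n = 5). The KO points lie above all WT points for 7 genes, the WT points scatter more widely for Sprr2d and Sprr2h, and Sprr3 stays near 3 in both groups.

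The count of 7 leaned on single arrays. Leaving out WT 4, KO 9 or KO 10 left 4 members past the threshold each time, with Sprr1a, Sprr1b and Sprr2k lost. Leaving out WT 1, WT 2 and KO 8 together, an alternative chosen after the spike-in values were seen, left 2, Sprr2d and Sprr2h, while the median difference was 1.19. For Sprr2d the difference was 3.22 among WT 1, WT 2 and KO 8 and 2.09 among the other 7 arrays, for Sprr2h 2.56 and 1.75, and for Sprr2i 2.71 and 3.03. All WT arrays precede all KO arrays in the running number of the titles, so that number goes with the genotype, and with it as a covariate 0 of 8 members passed in limma, and 0 also at an unadjusted p under 0.05. The difference of Sprr2d was then 0.96 (SE 0.57) in place of 2.62, and that of Sprr2i 0.88 (SE 0.69) in place of 3.13. Not every gene fell in that fit: Tgm5 was at 2.35 (SE 0.44) and Krt10 at 3.05 (SE 0.65), although neither passed (limma, adjusted p = 0.507 and 0.587). Of the single-gene results outside the members, 23 no longer passed in that fit, 5 reversed, and 5 kept their direction and side of the threshold.

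The Sprr2a copies and Sprr2f are not members, but they were listed with results of these arrays known. Their p-values are therefore not an independent test. Whether their probe sets also match transcripts of the members was not tested. The dimmer Sprr2a probe set (1437258_at, annotated to Sprr2a1 and Sprr2a2) read 6.39 to 7.99 on the WT arrays and 8.19 to 9.43 on the KO arrays. The bright 1450618_a_at, for the same pair of genes, read 11.35 to 12.20 and 12.45 to 12.98, and 1439016_x_at, which adds Sprr2a3, read 11.56 to 12.24 and 12.53 to 13.06. In all 3 the groups were apart, and the differences were 1.56 (SE 0.32), 0.98 (SE 0.18) and 0.99 (SE 0.17). Each passed in the same limma fit, with adjusted p-values of 0.0358, 0.0157 and 0.0138. None of the 3 passed without KO 9 or without KO 10, and 1 passed without WT 4. Since these probe sets match near-identical copies, they count as 1 observation of the Sprr2a group rather than 3.

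Sprr2f, known as an oestrogen-responsive gene of the uterus, read 4.94, 4.56, 3.92, 3.36 and 5.72 on WT 1 to WT 5, and 5.83, 5.60, 5.56, 4.98 and 5.67 on KO 8, 9, 10, 21 and 23. WT 5 lay above 4 of the 5 KO arrays. The difference of 1.03 (SE 0.36) did not pass (limma, adjusted p = 0.287), although its size is that of Sprr1a and Sprr2k, and its WT SD was wider, at 0.91. With array weights it passed, at 1.44 (limma, adjusted p = 0.0363).

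**Figure D3:**
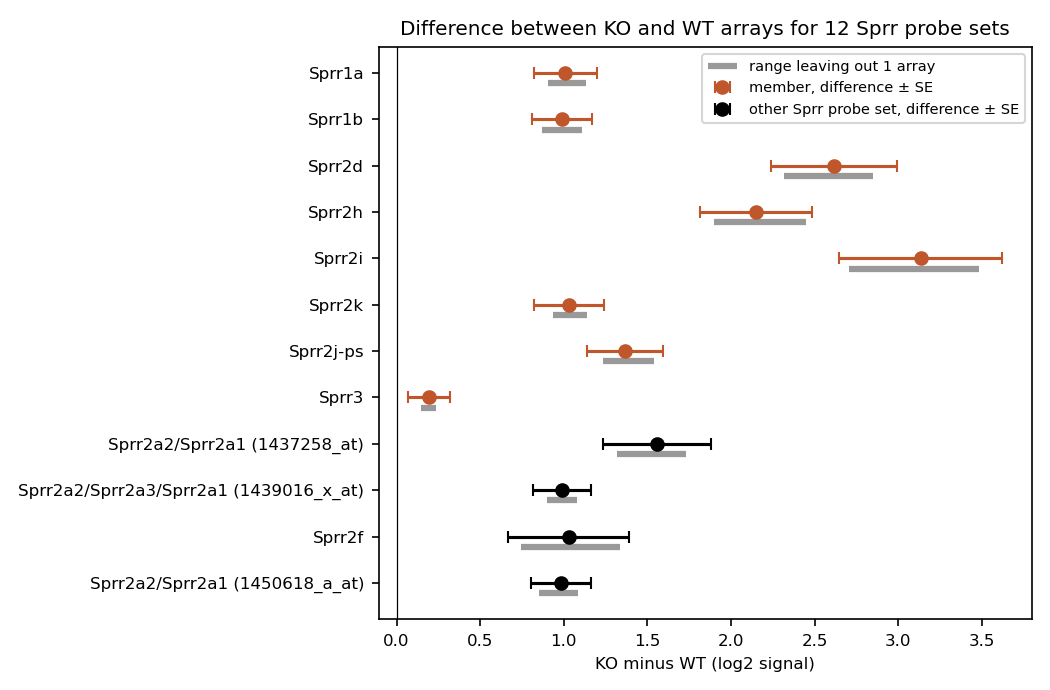
Difference between the KO and WT means (log2 signal; point, with its moderated SE as the whisker) for the 8 members (orange) and the 4 other Sprr probe sets (black), with the range over fits that leave out 1 array as a grey bar. All 12 points lie to the right of 0, Sprr2i, Sprr2d and Sprr2h farthest at 3.13, 2.62 and 2.15, and Sprr3 closest at 0.20.

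For 7 of 8 members the WT SD exceeded the KO SD. The share of all probe sets with this order was not computed, so it is not read as a trait of the members. WT 5 was the highest WT array for Sprr1a, Sprr2h, Sprr2i and Sprr2j-ps, by 0.60, 1.495, 1.75 and 0.86 over the mean of the other 4. The family level of an array, the mean over the 8 members of the signal minus its 10-array mean, was −1.13, −1.09, −0.49, −1.04 and −0.16 on WT 1 to WT 5, and 0.52, 0.89, 1.20, 0.74 and 0.56 on KO 8, 9, 10, 21 and 23. WT 5 was thus the closest of the WT arrays to the KO arrays. The Sprr2a probe sets went the other way: WT 5 was the lowest WT array for 2 of the 3, and lay 1.19, 0.65 and 0.38 below the mean of the other WT arrays in the order 1437258_at, 1450618_a_at and 1439016_x_at.

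WT 5 was split in a like manner among some genes of the differentiation programme. For others, such as Ivl, Csta1, Tchh, Prr9 and Cstb, it was neither the highest nor the lowest WT array. Repetin (Rptn), an envelope protein of the same gene complex, read 8.22 on WT 5 and 4.85 to 6.80 on the other WT arrays, and Kprp, the keratinocyte proline-rich protein, read 7.81 against 4.43 to 6.20. The suprabasal keratins did the opposite, Krt1 reading 8.80 on WT 5 and 9.61 to 11.21 on the other WT arrays, and Krt10 7.81 against 9.16 to 10.16. Pou2f3, a POU factor of suprabasal epidermis that binds octamer sites, was likewise lowest on WT 5, at 3.50 against 5.003 to 5.98. All WT values of Pou2f3 and some of Rptn and Kprp were under 6, and how far they stand above background is unknown. Rptn, Kprp, Krt1 and Pou2f3 were singled out here after their values were seen. WT 5 also had the highest mean of the 6 melanocyte markers (9.89, other arrays 6.61 to 9.73). The same held for the 6 myeloid and Langerhans cell markers (5.84, other arrays 4.58 to 5.79), and KO 23 had the second highest of both. Of the latter 6, Ptprc, Adgre1 and Cd207 were under 6 on all arrays, and Cd207 read 2.96 on WT 5 and 3.47 on WT 1. Whether melanocytes or myeloid cells play a part in the Sprr values was not tested.

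Likeness between genes was read as the Pearson correlation over the 10 arrays after each gene's group means were removed, so that the genotype difference that chose the members does not enter. It is a description, without a p-value, and the arrays' shared RNA quality and cell content enter every pair. The 3′ minus 5′ log2 signal of Gapdh, a control for RNA integrity and labelling, moved with the family level within groups: it was 1.72 and 1.80 on WT 1 and WT 2 against 1.92 to 2.01 on the other WT arrays, and 1.63 and 1.72 on KO 8 and KO 23 against 1.96 to 2.10 on the other KO arrays. The family level was lowest in each group on those same arrays. The 3′ minus 5′ signal of Actb was 0.169 and 0.266 on WT 1 and WT 2, and 0.223 to 0.287 on other WT arrays. On KO 8 and KO 23 it was 0.205 and 0.259, and 0.161 to 0.209 on other KO arrays, without the same split. The part of these measures in the likeness values was not tested. Among the 7 members other than Sprr3, the 21 pairs had a median r of 0.58, from 0.02 for Sprr1b with Sprr2j-ps to 0.91 for Sprr2d with Sprr2h. Sprr2d, Sprr2h, Sprr1a and Sprr1b formed the tight core, with every pair at 0.82 or more, whereas Sprr2k and Sprr2j-ps were linked to it loosely (Sprr2k at 0.22 to 0.53). Likeness and promoter layout were not compared over all pairs. Sprr2d, Sprr2h and Sprr2i, with the octamer layout, correlated in pairs at 0.71 to 0.91, and Sprr2k, with the same layout, correlated with them at 0.28 to 0.63. Sprr1a and Sprr1b, without an octamer, correlated with Sprr2d, Sprr2h and Sprr2i at 0.52 to 0.90. Whether layout has a part in likeness was not tested.

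The Sprr2a probe sets were linked weakly or negatively to that core. In the order 1437258_at, 1439016_x_at and 1450618_a_at, they correlated with Sprr1b at 0.25, 0.44 and −0.10, with Sprr2d at 0.11, 0.30 and −0.24, with Sprr1a at −0.08, 0.15 and −0.25 and with Sprr2h at −0.19, 0.04 and −0.52. The highest of these are in the range of Sprr2k's. With Sprr2j-ps, outside the core, they gave −0.64, −0.56 and −0.43. With Krt10 the same sets gave 0.71, 0.61 and 0.70. Sprr2h with Krt10 gave −0.37, and with Rptn 0.96. WT 5 lies far from the other WT arrays on most of these genes, and the correlations of these pairs without it were not computed.

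The genes outside the family with the highest likeness to its level, among 8246 with a mean signal of at least 6, were Lce3f, Kprp, Gsdma, Crct1 and Hmox1. Lce3f, a late cornified envelope gene, reached r = 0.95 (Spearman's rho 0.96), Kprp 0.94 (0.87), Gsdma, a pore-forming gasdermin of the upper epidermis, 0.93 (0.87), Crct1, a cysteine-rich protein encoded in the same complex, 0.93 (0.84), and Hmox1, haem oxygenase, 0.92 (0.94). Without WT 5 and KO 10, the 2 arrays farthest from the median family level, these became 0.90, 0.84, 0.95, 0.85 and 0.76. The likeness of Krt1 and Krt10 to the family level turned from −0.29 and −0.32 to 0.78 and 0.84 when those 2 arrays were left out. The members' own values enter the family level, but none of these genes is a member. Only 5 of the 8 members themselves have a mean signal of at least 6. The level is an unscaled mean, and Sprr2i, not among those 5, deviated from its group means by 1.40 on WT 5 and 1.71 on KO 10.

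**Figure D4:**
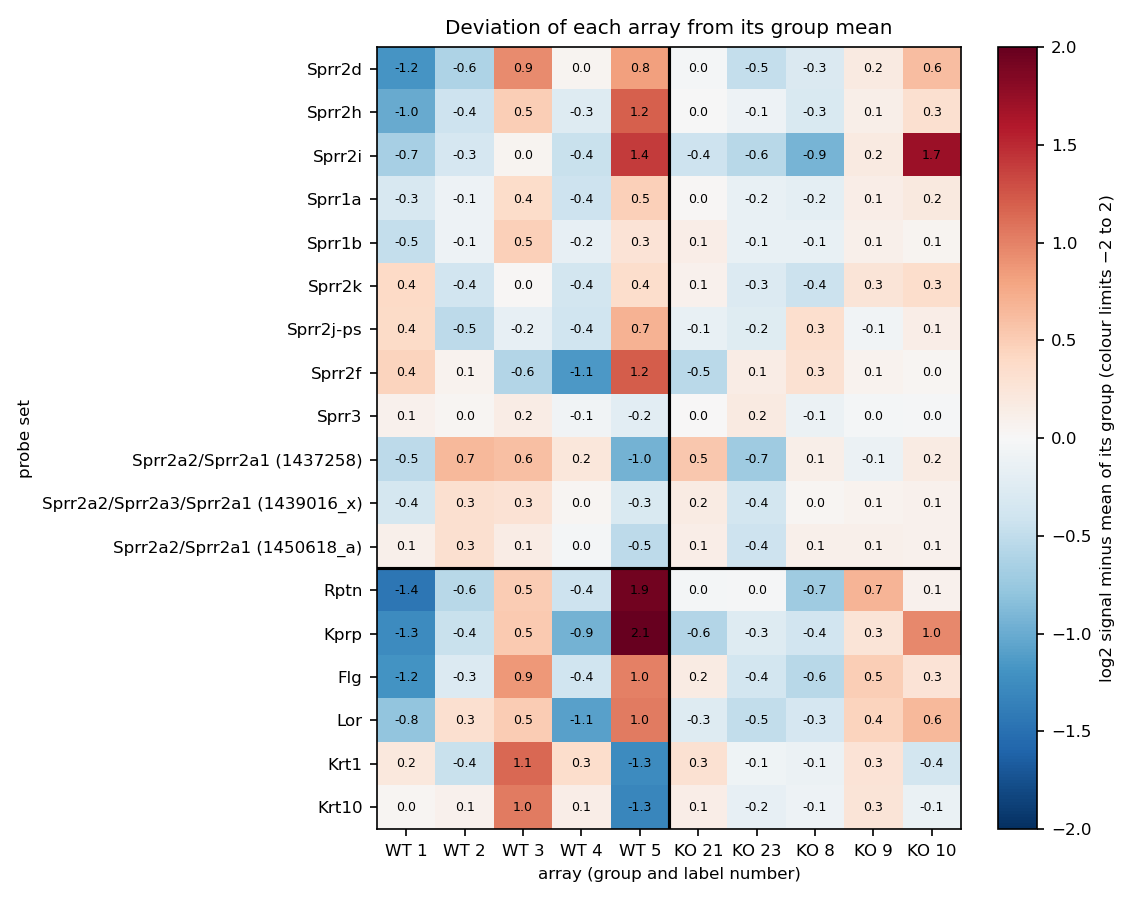
Deviation of each array from the mean of its group (log2 signal, printed in each cell and coloured blue below and red above the mean) for the 12 Sprr probe sets and, below the line, 6 other genes of the cornified envelope programme. On WT 5 most Sprr members, Rptn, Kprp, Flg and Lor are above the group mean, while the Sprr2a probe sets, Krt1 and Krt10 are below it.

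The genes that act with the Sprr proteins were taken from lists, counted with 1 probe set per gene, of which 1.82% passed as higher in KO and 0.165% as lower (limma, 18193 genes), with a median difference of −0.01 over all genes. The lists, like the members, were drawn up with results of these arrays known. Transglutaminases form the cross-links that bind Sprr proteins. Of 7 measured, 3 rose and 0 fell in limma (0 also at an unadjusted p under 0.05), and the median difference was 0.29. Tgm5 rose by 2.10 (SE 0.21), Tgm3 by 1.69 (SE 0.28) and Tgm1, the membrane-bound keratinocyte enzyme, by 1.13 (SE 0.21), with adjusted p-values of 0.000531, 0.00936 and 0.019 in limma. On the WT arrays Tgm5 read 4.98 to 5.99 and Tgm3 4.87 to 6.25, and how far these signals stand above background is unknown. Tgm1 did not pass without WT 4 or without KO 9, nor without WT 1, WT 2 and KO 8 together. Tgm2, the ubiquitous enzyme, differed by −0.04 (limma, adjusted p = 0.979).

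The envelope partners of Sprr proteins gave the fullest list, with 11 of 18 measured genes risen, 0 fallen (limma; 1 at an unadjusted p under 0.05) and a median difference of 1.72. Hrnr (hornerin) rose by 3.52 (SE 0.25), Ivl (involucrin, an early scaffold of the envelope) by 1.71 (SE 0.20), Lor (loricrin, its main protein) by 2.95 (SE 0.39) and Krt10 by 2.36 (SE 0.33), and limma gave adjusted p-values of 0.000207, 0.00106, 0.00228 and 0.00323. The WT values of Hrnr, 2.80 to 4.10, are near the low end of the scale, and how far they stand above background is unknown. Without WT 1, WT 2 and KO 8 the count was 7, and Krt10 did not pass at 2.42 (limma, adjusted p = 0.0538). These 4 partners are those with the smallest adjusted p, so their range does not stand for the list. The differences of Sprr2d, Sprr2h and Sprr2i, 2.15 to 3.13, lie within it. Those of Sprr1a and Sprr1b lie below all 4. They lie above those of all partners that did not pass, which ran from −0.43 for Anxa1 to 0.74 for Evpl.

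Of 31 measured genes whose proteins are known or proposed to regulate Sprr transcription, 5 rose and 0 fell in limma, and the median difference was 0.52. At an unadjusted p under 0.05 the counts were 18 and 1, where 7.13% of all genes were higher and 5.48% lower. Klf4, a zinc-finger factor of the epidermal barrier, rose by 0.99 (SE 0.16), Grhl1, a grainyhead factor, by 1.01 (SE 0.17), Cebpa, which promotes keratinocyte differentiation, by 1.08 (SE 0.18) and Hopx, a homeodomain protein that does not bind DNA, by 2.002 (SE 0.35). Their adjusted p-values in limma were 0.00666, 0.00873, 0.00883 and 0.0129. The fifth was Pou2f3, which rose by 1.66 (SE 0.35, limma adjusted p = 0.0391). Its WT values, 3.50 to 5.98, were all under 6, so how far they stand above background is unknown. Hopx did not pass without KO 9, where the count was 3, and Cebpa did not pass without WT 1, WT 2 and KO 8. The genes of the AP-1 subunits did not pass. Their signals are of RNA, AP-1 activity was not measured, and a part of AP-1 in the Sprr values was not tested. Jun differed by 0.58 (SE 0.16, limma adjusted p = 0.149), and by 0.73 at its other probe set. Every KO array read above every WT array for Jun, as for 2.28% of all probe sets. Fosl2 differed by 0.40 (SE 0.16, limma adjusted p = 0.375). Fos differed by 0.03 (SE 0.55, limma adjusted p = 0.997), its highest signals being on WT 1, WT 2 and KO 8. Junb differed by 0.44 (SE 0.16), Jund by −0.04 (SE 0.13), Fosl1 by −0.40 (SE 0.30) and Fosb by −1.06 (SE 1.12).

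Sprr2 genes are known to respond to NRF2, the transcription factor of the oxidative stress response. Of 9 NRF2 targets measured, 0 rose and 1 fell in limma, against 2 and 2 at an unadjusted p under 0.05 (7.13% and 5.48% of all genes), and the median difference was 0.19. The one that fell was Gsr, glutathione reductase, by 0.85 (SE 0.16; limma, adjusted p = 0.0179), and it did not pass without WT 4, KO 9 or KO 10. Hmox1, the target most like the Sprr family within groups, differed by 1.32 (SE 0.44; limma, adjusted p = 0.242) and passed without WT 5, at 1.73 (limma, adjusted p = 0.0259).

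Sprr1 genes are also known as genes of wounded and hyperproliferative epidermis. Of 9 such genes measured, 4 rose and 0 fell in limma (0 also at an unadjusted p under 0.05), and the median difference was 0.45. S100a9 and S100a8, the subunits of calprotectin, rose by 1.89 (SE 0.20) and 1.93 (SE 0.23), with limma adjusted p-values of 0.000613 and 0.00127. Krt6b, a keratin of activated keratinocytes, rose by 1.98 (SE 0.41) and Epgn, the epidermal growth factor receptor ligand epigen, by 1.10 (SE 0.24), with limma adjusted p-values of 0.0357 and 0.0457. The last 2 calls were lost on leaving out any of several single arrays, and the count was 2 without WT 5, KO 8, KO 9, KO 10 or KO 21.

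Markers of other cell types were read beside these values. None of the 9 basal keratinocyte genes passed, and Krt5 differed by −0.05 (limma, adjusted p = 0.963). The 6 fibroblast markers were bright on 3 arrays, averaging 8.70 (WT 3), 8.40 (WT 4) and 7.48 (KO 23), with the other arrays at 5.62 to 6.83, and Col1a1 differed by −0.28 (limma, adjusted p = 0.976). The 4 keratins of simple epithelium averaged 7.52 on WT 1 and 8.58 on WT 2, against 5.29 to 6.68 elsewhere, and Krt7 differed by −0.56 (limma, adjusted p = 0.708). The melanocyte markers averaged 6.61 to 9.89 on the WT arrays and 8.14 to 9.73 on the KO arrays, lowest on WT 1 and WT 2, which were also the lowest arrays for Sprr2d and Sprr2h, and Tyrp1 differed by 0.91 (limma, adjusted p = 0.780). Within groups Tyrp1 correlated with Sprr2h at 0.85 and with Sprr2k at 0.01. Of the myeloid and endothelial markers, Lyz2 differed by −0.58 (limma, adjusted p = 0.844) and Pecam1 by −0.30 (limma, adjusted p = 0.669). All 4 endothelial genes, and 3 of the 6 myeloid and Langerhans cell markers, were under 6 on all arrays. Of these lists 0 genes passed the threshold in limma, and at an unadjusted p under 0.05 the only one was the basal keratinocyte gene Col17a1, named after its value was seen, at a difference of 0.50 (limma, adjusted p = 0.27). As a gauge of how low unexpressed genes read, 11 of 14 genes of other organs stayed under 6 on all arrays, as did Sprr3 and Sprr2f. The other 3 read higher: the sperm protamine Prm1 read 6.88 to 7.75 and differed by 0.07 (limma, adjusted p = 0.971), and Iapp and Ins2, named after their values were seen, reached 8.27 and 6.30. The 5.91 to 7.68 of Sprr2k and the 4.03 to 6.25 of Sprr2j-ps are therefore within what genes of other organs gave here. The part of these cell types in the Sprr differences was not tested.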

How the data were processed

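Total RNA of 5 WT and 5 KO keratinocyte cultures was hybridised to 10 one-colour arrays. The authors deposited log2 signals made by RMA, per the submitters' processing notes; its version is not given in the sources used here. RMA brings the arrays to one distribution, so a shift of most genes would not show. The 64 control probe sets were left out, and 45037 were fitted with limma 3.58.1 (lmFit, eBayes) in R 4.3.3, KO minus WT with no covariate, two-sided, and adjusted by Benjamini-Hochberg over all of them at 0.05. The platform annotation names 1 gene for 34945 of them, several for 932 and none for 9160. Outside the Sprr genes, the probe set with the highest mean stood for a gene. The fit was tested on simulated data.

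The members and gene lists were chosen with earlier results of these data known. Named genes were all Sprr probe sets, in each other list up to 4 genes with the smallest adjusted p among those past the threshold or else its most abundant gene, and the 5 genes of highest likeness. Alternatives left out each array, added the array number, used a trend or array weights, recentred the arrays, changed the probe set per gene or left out dim probe sets. The number of arrays limits the precision.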

Additional observations from a re-analysis of the deposited data

Results flagged for a closer look

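Single arrays were compared with the other 4 of their group for 82 groups of 5 values, of which 3 stood apart; about 1 in 20 groups does so by chance. For the Sprr2a probe set 1439016_x_at, KO 23 read 12.53 while the other KO arrays read 12.95 to 13.06. For 1450618_a_at, KO 23 read 12.45 while the others read 12.94 to 12.98. Both match the same near-identical genes, so they are 1 observation. KO 23 was also the second highest array for the melanocyte and myeloid markers, and the link was not tested. For Ivl, WT 4 read 7.99 while the other WT arrays read 8.81 to 8.98. None of the 8 Sprr members had an array apart from its group by this measure.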

How the results depend on the processing

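No paired analysis was possible because the WT and KO arrays share no number. In 15 refits per member, 96 member results kept their direction and side of the threshold, 24 no longer passed and none reversed; of the other single-gene results 422 kept both, 84 no longer passed, 3 newly passed and 16 reversed. With 1 array left out, 4 to 7 Sprr members and 0 to 3 other Sprr probe sets passed and the members' median difference was 1.11 to 1.33. In those refits 2 to 3 transglutaminases, 8 to 11 envelope partners, 3 to 7 regulators, 0 to 1 NRF2 targets and 2 to 3 wound genes passed as higher, and 0 to 1 NRF2 targets as lower. With the array number as a covariate the counts were 0 for members, other Sprr probe sets, transglutaminases, envelope partners, regulators, wound genes and NRF2 targets (lower), and the members' median was 0.79. With array weights, 9 regulators and 2 NRF2 targets passed as higher and 2 NRF2 targets as lower. Without WT 1, WT 2 and KO 8 (chosen after seeing the data; fewer samples), 2 members, 0 other Sprr probe sets, 7 envelope partners and 0 NRF2 targets (lower) passed. With the mean over a gene's probe sets, 8 regulators passed as higher and 2 NRF2 targets as lower. Of the 5 genes of highest likeness, 2 stayed among the top 20 by Spearman's rho and 3 without the 2 farthest arrays. The reversed results had not passed with all arrays. With 1 array left out, Krt76 ran from −0.11 to 0.048, Prm1 from −0.022 to 0.20 and Col1a1 from −0.77 to 0.32. With the array number, Krt5 was 0.001, Krt76 0.16, Krt7 0.036, Tyrp1 −1.40 and Hmox1 −0.72; with array weights Krt76 was 0.015; without WT 1, WT 2 and KO 8, Krt76 was 0.034 and Krt7 0.11. The cause was not tested.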

Other observations

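The genes whose array-to-array pattern within groups was most like that of the 3 Sprr2a probe sets, chosen after their values were seen, were Xdh (xanthine dehydrogenase), Slc7a3 (a cationic amino acid transporter), Ddx50, Bnc1 (basonuclin, a zinc-finger protein of basal keratinocytes) and Zfp36l1, with r of 0.97, 0.94, 0.93, 0.93 and 0.93 over 10 arrays. The same genes are not those most like the 8 Sprr members: Lce3f, first for the members, gave −0.29 with Sprr2a. Cd68, a macrophage marker named after its value was seen, gave −0.84 with Sprr2a, and Itga3, from the basal keratinocyte list, gave −0.825. Cd68 was highest on WT 5 (7.83) and KO 23 (7.86), the arrays where Sprr2a was lowest in each group. Its r without those arrays was not computed.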
